A study of Mus musculus with 15 samples.

Results

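Tiparp and 6 genes of the aryl hydrocarbon receptor (AHR) pathway, Ahr, Ahrr, Arnt, Arnt2, Cyp1b1 and Nqo1, were followed in hippocampal RNA after contextual fear conditioning and after memory retrieval. They are 7 of the 37310 genes in the count table, and all 7 were among the 18008 that were tested because over 10 reads were counted in each of at least 6 libraries. Tiparp was selected on its measured values, a higher UQ count and fold change in FC and RT than in CC in these libraries, so its differences are described and not tested. The other 6 were taken for their place in the pathway. The mice were 2-month-old wild-type C57BL/6J males. Control mice (CC) had handling alone, without the chamber or the shock, and their dissection was matched to the other groups by clock time. FC mice were given a single shock to the feet (1.5 mA, 2 s) in the conditioning chamber, and their tissue was taken 30 min later. RT mice were conditioned in the same way, were returned to the context 24 h later for a retrieval test of 5 min, and were dissected 30 min afterwards. Each group had n = 5 libraries, numbered 3, 5, 6, 7 and 8, each made from polyA RNA of the pooled hippocampi of 1 mouse. The article and the deposited design text differ in the number of animals and days, so n counts libraries.

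AHR is a ligand-activated transcription factor of the bHLH-PAS family, whose members pair through their helix-loop-helix and PAS domains. Without ligand it is held in the cytoplasm by the HSP90 chaperone and its co-chaperones, among them the one encoded by Ptges3. With ligand it enters the nucleus, pairs with ARNT and binds xenobiotic response elements with the core GCGTG. Its known target genes include those for drug-metabolizing enzymes such as Cyp1b1 and Nqo1, and its own repressors Ahrr and Tiparp. TIPARP, also called PARP7, is a mono-ADP-ribosyltransferase that modifies AHR and limits its activity, and AHRR competes with AHR for ARNT. ARNT2, the close relative of ARNT, is abundant in neurons and also partners the activity-induced factor NPAS4.

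The depth was 35731428 to 62555543 counted reads per library (median 52154887). Counts are given after upper-quartile (UQ) normalization, which scales each library by the upper quartile of its counts. FC3 and RT3 stood apart from the other libraries after UQ. The interquartile range of relative log expression, the natural log of a count relative to the gene's median over all libraries, was 0.828 in FC3 and 0.436 in RT3, and at most 0.117 in the other 13 libraries. The UQ means of the 7 genes are therefore also given without FC3 and RT3. The 4 oligodendrocyte markers summed to 313798 in FC3 and 280785 in RT3, against 184691 to 220017 in the other 13 libraries. The sum of the 6 astrocyte markers was 151694 in FC3 and 164623 in RT3, against 186000 to 220297 elsewhere. The 9 mural cell markers summed to 23067 in FC3 and 21943 in RT3, against at most 18768 elsewhere. For the 5 microglia markers the sums were 8764 and 11046, against at least 11489 elsewhere. The part of these cell types in the values of FC3 and RT3 was not tested. Markers of hippocampal neurons, the cells of the labelled tissue, were present in all libraries, with a summed UQ count over 8 genes of 417819 to 493031. The sum weighs the genes of high count most. As log2(UQ count + 1) minus each gene's mean over the libraries, the 8 genes averaged -0.236 in FC3 and -0.134 in RT3. The other 13 libraries had -0.036 to 0.085. The 12 choroid plexus markers, which come from a neighbouring tissue, had a summed UQ count between 10739 and 11943 in CC. The sum was between 14153 and 83886 in FC and between 11308 and 29887 in RT, with no marker at 0 in any library. Changes are log2 fold changes from edgeR, where 1 negative binomial model held all 15 libraries, the UQ factors and 5 factors of unwanted variation (RUVs). The call rule was a likelihood ratio test with a Benjamini-Hochberg false discovery rate (FDR) under 0.01 over all 18008 genes. FC vs CC and RT vs CC share the CC libraries and are not independent of each other.

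Tiparp (ENSMUSG00000034640) lies at chr3:65332332-65359067 on the plus strand of mm9, with 3985 exonic bases. Its UQ counts were 680, 735, 659, 655 and 709 in CC libraries 3, 5, 6, 7 and 8. In FC they were 621, 1138, 1060, 1043 and 1032, and in RT 826, 989, 954, 909 and 957. All 5 RT libraries were above all CC libraries, while in FC 4 libraries were above the highest CC library and FC3 was below the lowest. Over all tested genes, 0.877% had RT counts entirely above CC counts, a share printed as background because Tiparp was chosen for its values. The means were 687.6 ± 34.1 in CC, 978.8 ± 204 in FC and 927 ± 63.2 in RT (SD, n = 5), or 1.42 times CC in FC and 1.35 times CC in RT. Without FC3 and RT3 the means were 1068 ± 47.9 in FC and 952.2 ± 32.9 in RT (SD, n = 4), or 1.55 and 1.38 times CC. With those libraries left out, neither FC nor RT overlapped with CC, where leaving out FC3 removed the only FC library below CC. The share of all tested genes without overlap in that setting was not computed, so nothing is read from it.

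After RUVs the counts of Tiparp were 428, 423, 419, 437 and 426 in FC libraries 3, 5, 6, 7 and 8. In RT they were 393, 408, 396, 382 and 399, and in CC 285, 297, 278, 273 and 284. RUVs estimates its factors from the differences between libraries of the same group, so the spread within groups is reduced by its construction, and the adjusted counts have a scale of their own for each gene. FC3 was then inside the range of the other FC libraries, and the 3 groups did not overlap in the order FC, RT and CC. RUVs counts lay entirely higher in FC than in CC for 4.39% of all tested genes, in RT than in CC for 3.85% and in FC than in RT for 2.62%. The log2 fold change of Tiparp in FC vs CC was 0.59 (SE 0.05), and that of RT vs CC was 0.48 (SE 0.05). FC vs RT gave 0.11 (SE 0.04). As Tiparp was selected on these values, the SE, which is derived from the statistic of the fit, is given as a description and is not read as a test. With UQ factors alone these were 0.51, 0.43 and 0.08, with an SE of 0.155, 0.155 and 0.154. Over all genes, 2.24% passed the call rule for FC vs CC, 1.01% for RT vs CC and 0.122% for FC vs RT. These shares are over every tested gene, Tiparp included, and nothing is read from them for Tiparp.

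**Figure D1:**
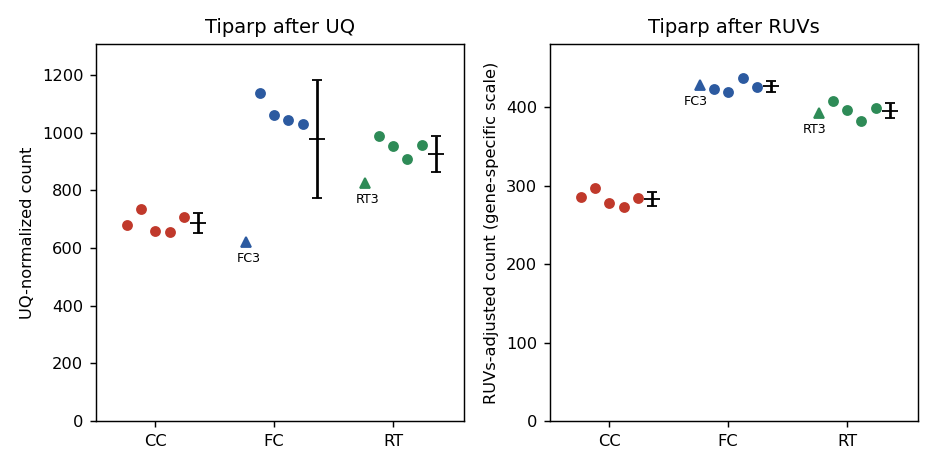
Counts of Tiparp in each library of CC, FC and RT after UQ (left) and after RUVs (right, on a scale of its own), with triangles for FC3 and RT3 and bars for the mean and SD of 5 libraries. After UQ FC3 lies at 621, below the CC libraries at 655 to 735, and after RUVs it lies at 428, within the other FC libraries at 419 to 437.

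The summed choroid plexus markers were above the CC range in all FC libraries and in all RT libraries but RT6. Their part in the Tiparp values was not tested. Tiparp had 1138 UQ counts in FC5, where the markers summed to 83886, and 1032 in FC8, where they summed to 41628. It had 1060 in FC6, where they summed to 14153. In RT6, with a marker sum of 11308 inside the CC range of 10739 to 11943, Tiparp had 954 counts, above the highest CC value of 735. In these bulk samples more cells of a type and more RNA per cell cannot be told apart. The exons of Tiparp overlap those of 4931440P22Rik on the other strand over 223 bases, 5.6% of the exonic length of Tiparp. The kit did not mark strand, so reads from there cannot be told apart. 4931440P22Rik itself had 21 to 56 UQ counts in the 15 libraries.

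The receptor Ahr (ENSMUSG00000019256, chr12:36182646-36219710, minus strand) had 544, 507, 463, 508 and 422 UQ counts in CC libraries 3, 5, 6, 7 and 8. FC had 186, 571, 564, 544 and 602, and RT had 331, 502, 551, 466 and 564. The 3 groups overlapped, and the lowest values were in FC3 and RT3. The means were 488.8 ± 47.1 in CC, 493.4 ± 173 in FC and 482.8 ± 93.5 in RT (SD, n = 5). Without FC3 the mean of FC was 570.2 ± 24.1 (SD, n = 4), 1.17 times that of CC, with 3 of the 4 libraries above the highest CC library, and without RT3 that of RT was 520.8 ± 45.2, 1.07 times CC. After RUVs FC had 468 to 483 counts and CC 423 to 448, without overlap, as in the 4.39% of tested genes that lay entirely higher in FC. The log2 fold change of FC vs CC was 0.13 (SE 0.05, 95% interval 0.02 to 0.23), and it did not pass the call rule (edgeR FDR 0.179). The value depended on the model and on FC3 and RT3. It was 0.01 with UQ factors alone (FDR 0.997), -0.08 with the library number as a block and UQ factors alone (FDR 0.93), and 0.19 without FC3 and RT3 with RUVs factors computed anew (FDR 0.0121). RT vs CC gave 0.09 (FDR 0.596) and FC vs RT 0.04 (FDR 0.855).

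Its partners Arnt and Arnt2 had the highest counts of the 7 genes, also per exonic length. Arnt (ENSMUSG00000015522, chr3:95238310-95301162, plus strand) had 2763, 2720, 2618, 2690 and 2632 UQ counts in CC libraries 3, 5, 6, 7 and 8. FC had 1322, 2627, 2667, 2627 and 2513, and RT had 2012, 2654, 2683, 2576 and 2657. FC3 and RT3 were far below the rest, and the other FC and RT libraries overlapped with CC. Their means without FC3 and RT3 were 2608 ± 66.4 in FC and 2642 ± 46.2 in RT (SD, n = 4), 0.972 and 0.984 times the CC mean of 2685 ± 60.5 (SD, n = 5). After RUVs all FC libraries (1843 to 1910) lay below all CC (1987 to 2031) and RT libraries (1962 to 2009). Of all tested genes, 7.11% had RUVs counts in FC that were all below those in CC, and 4.97% had FC counts all below those in RT. The log2 fold change of FC vs CC was -0.10 (95% interval -0.16 to -0.04) with an edgeR FDR of 0.038, which did not pass 0.01. Without FC3 and RT3 it was -0.05 (FDR 0.55), and with UQ factors alone and all libraries it was -0.19 (FDR 0.966). It was -0.03 for RT vs CC (FDR 0.834) and -0.07 for FC vs RT (FDR 0.336).

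Arnt2 (ENSMUSG00000015709, chr7:91394791-91558469, minus strand) had 16287, 16031, 15845, 16365 and 14210 UQ counts in CC. In the same order FC had 9016, 15533, 14966, 16592 and 15525, and RT had 10429, 16836, 15632, 16118 and 14361. Again FC3 and RT3 were lowest and the groups overlapped. Without them the means of FC and RT were 0.994 and 0.999 times that of CC. The log2 fold changes were -0.04 (95% interval -0.14 to 0.06, FDR 0.781) for FC vs CC, -0.03 (FDR 0.872) for RT vs CC and -0.004 (FDR 0.989) for FC vs RT. With UQ factors alone and all libraries, that of FC vs CC was -0.14 (SE 0.17, FDR 0.966).

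The repressor Ahrr (ENSMUSG00000021575, chr13:74348566-74429779, minus strand) had the lowest counts of the 7, also per exonic length. It had 83, 94, 75, 90 and 75 UQ counts in CC, 41, 89, 78, 96 and 91 in FC and 64, 80, 92, 94 and 86 in RT. The groups overlapped, with FC3 lowest. The means were 83.4 ± 8.62, 79 ± 22.2 and 83.2 ± 12.1 (SD, n = 5). Without FC3 and RT3 they were 88.5 ± 7.59 in FC and 88 ± 6.33 in RT (SD, n = 4), both 1.06 times CC. With UQ factors alone and all libraries the log2 fold change of FC vs CC was -0.09 (FDR 0.966). For FC vs CC the log2 fold change was 0.01, with a 95% interval of -0.21 to 0.23 (edgeR FDR 0.977). Differences within that interval remain possible, and the smallest change that would pass the call rule was not computed. It was 0.07 for RT vs CC (FDR 0.885) and -0.06 for FC vs RT (FDR 0.903).

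Cyp1b1 (ENSMUSG00000024087, chr17:80106234-80114401, minus strand) encodes a cytochrome P450 that oxidizes steroids and xenobiotics. Its UQ counts were 180, 251, 206, 219 and 177 in CC, 163, 219, 270, 182 and 196 in FC and 243, 188, 201, 186 and 225 in RT. The groups overlapped throughout, with means of 206.6 ± 30.5, 206 ± 41.2 and 208.6 ± 24.7 (SD, n = 5). Without FC3 and RT3 they were 216.8 ± 38.6 in FC and 200.0 ± 17.9 in RT (SD, n = 4), beside 206.6 in CC. The log2 fold changes were 0.03 (95% interval -0.16 to 0.22, edgeR FDR 0.916) for FC vs CC and 0.04 (FDR 0.944) for RT vs CC. FC vs RT gave -0.003 (FDR 0.995).

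Nqo1 (ENSMUSG00000003849, chr8:109912125-109927106, minus strand) encodes a quinone reductase that is a target of both AHR and NRF2. It had 193, 213, 212, 210 and 191 UQ counts in CC, 354, 265, 218, 168 and 190 in FC and 256, 195, 207, 247 and 197 in RT. FC3 and RT3 held the highest values of their groups, the reverse of Ahr and its partners. FC3 had 1.68 times the mean of the other 4 FC libraries, against 0.326 times for Ahr, 0.507 for Arnt and 0.581 for Tiparp. Without FC3 and RT3 the means of Nqo1 were 210.2 ± 41.8 in FC and 211.5 ± 24.2 in RT (SD, n = 4), 1.03 and 1.04 times CC. The log2 fold changes after RUVs were 0.10 (95% interval -0.06 to 0.26, edgeR FDR 0.598) for FC vs CC, 0.07 (FDR 0.824) for RT vs CC and 0.03 (FDR 0.942) for FC vs RT.

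**Figure D2:**
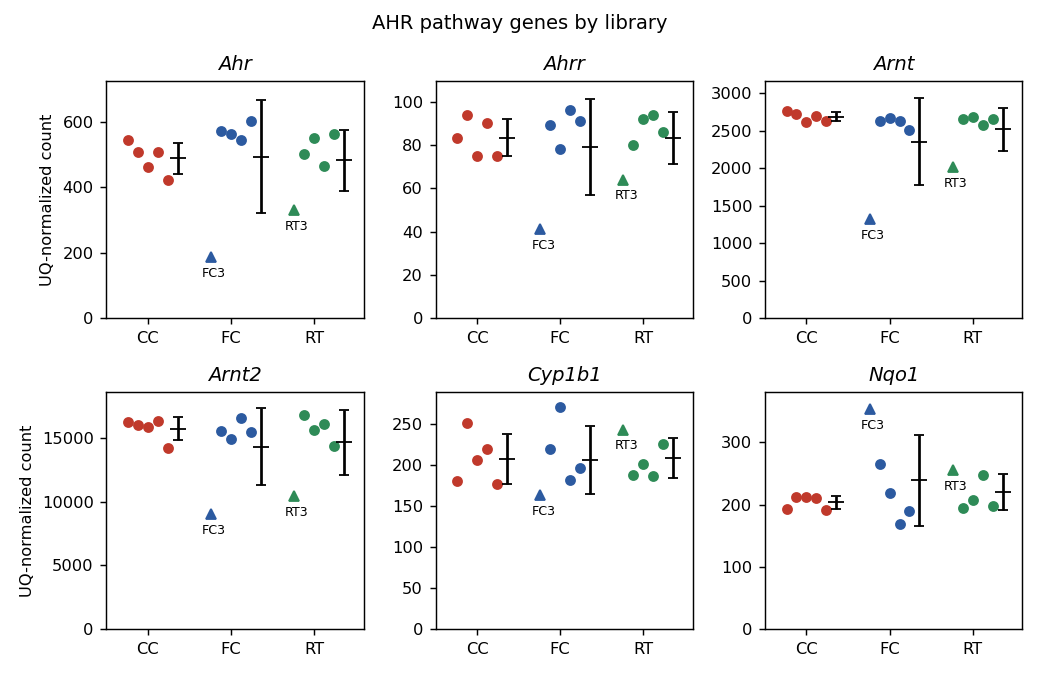
UQ counts of Ahr, Ahrr, Arnt, Arnt2, Cyp1b1 and Nqo1 in each library of CC, FC and RT, with triangles for FC3 and RT3 and bars for the mean and SD of 5 libraries. In FC, FC3 is the lowest library for every gene but Nqo1, where it is the highest at 354.

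Of the 6 genes other than Tiparp, 0 passed the call rule in FC vs CC, RT vs CC or FC vs RT, by edgeR's likelihood ratio test, by its quasi-likelihood test or by DESeq2. At an unadjusted p under 0.05, by the likelihood ratio test, there were 2 in FC vs CC (Ahr and Arnt), against 16.5% of all tested genes, 0 in RT vs CC, against 11%, and 1 in FC vs RT (Arnt), against 10.7%. The intervals bound the differences of Arnt and Arnt2 most closely and that of Ahrr least closely.

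**Figure D3:**
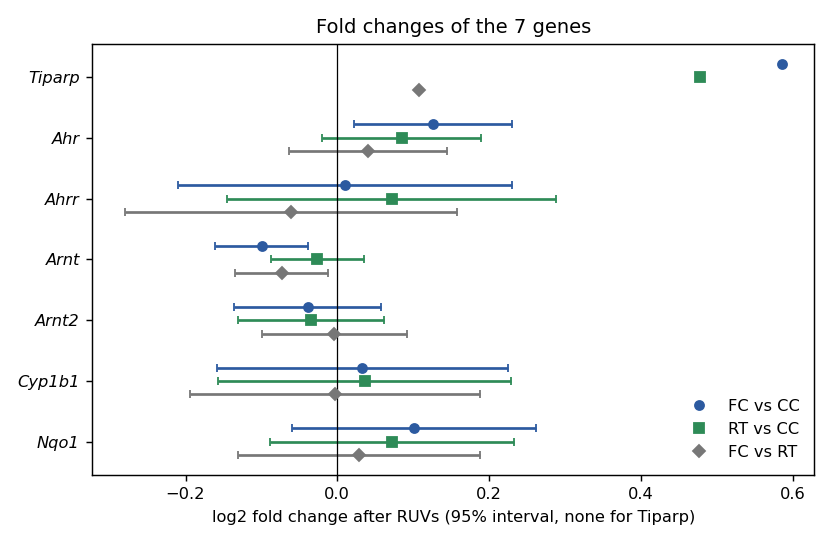
Log2 fold changes after RUVs of the 7 genes in FC vs CC, RT vs CC and FC vs RT, with 95% intervals for all but Tiparp, which was not tested. Tiparp lies at 0.59, 0.48 and 0.11, and the other genes lie between -0.10 and 0.13.

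To compare levels between genes, UQ counts were divided by the exonic length in kilobases. In CC the order was Arnt2, Arnt, Tiparp, Nqo1, Ahr, Cyp1b1 and Ahrr. Arnt2 had 2630 ± 148 UQ counts per kb (SD, n = 5), above 93.9% of the tested genes, and Ahrr had 8.95 ± 0.925, above 5.76%. Tiparp had 172.5 ± 8.53, above 43.8% of tested genes, between Arnt at 335.5 ± 7.6 and Nqo1 at 131.3 ± 7. Ahr had 79.2 ± 7.62 and Cyp1b1 had 39.7 ± 5.86. No neighbours in this order overlapped in CC or in RT. The means kept this order in FC, but there the ranges of Arnt (165.3 to 333.3) and Tiparp (155.9 to 285.7) overlapped, as did those of Tiparp and Nqo1 (108.4 to 227.7) and of Ahr (30.2 to 97.5) and Cyp1b1 (31.3 to 51.9). In all 3 overlaps the lower bound of Arnt, Tiparp or Ahr was FC3.

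**Figure D4:**
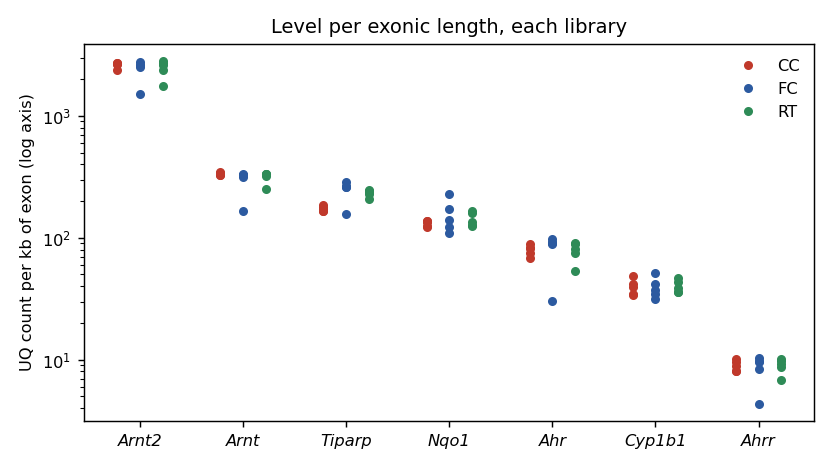
UQ counts per kb of exon for the 7 genes in each library, on a log axis, ordered by the CC mean. The CC libraries of neighbouring genes do not overlap, from Arnt2 at 2630 to Ahrr at 8.95 on average.

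The promoters of the 3 repressor and enzyme genes whose window held the AHR core motif are shown so that Tiparp can be set beside Ahrr and Cyp1b1. They are the 250 bases before the annotated start, 5′ to 3′ on the strand of the gene, from RefSeq on GRCm38.p6. Positions in this build are not those of mm9. They lie at chr3:65528197-65528446 (plus strand), chr13:74292332-74292581 (minus strand) and chr17:79715062-79715311 (minus strand), and capitals mark GCGTG, or CACGC where it reads on the other strand.
Tiparp: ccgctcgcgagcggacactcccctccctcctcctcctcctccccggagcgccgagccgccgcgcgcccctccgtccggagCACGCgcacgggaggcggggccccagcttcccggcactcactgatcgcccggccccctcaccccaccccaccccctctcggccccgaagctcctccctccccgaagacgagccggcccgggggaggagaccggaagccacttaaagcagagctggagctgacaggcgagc
Ahrr: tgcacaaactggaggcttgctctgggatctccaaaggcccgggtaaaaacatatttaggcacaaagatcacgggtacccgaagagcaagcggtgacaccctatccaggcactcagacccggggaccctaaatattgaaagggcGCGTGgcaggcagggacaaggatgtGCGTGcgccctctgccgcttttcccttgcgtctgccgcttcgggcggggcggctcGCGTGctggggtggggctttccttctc
Cyp1b1: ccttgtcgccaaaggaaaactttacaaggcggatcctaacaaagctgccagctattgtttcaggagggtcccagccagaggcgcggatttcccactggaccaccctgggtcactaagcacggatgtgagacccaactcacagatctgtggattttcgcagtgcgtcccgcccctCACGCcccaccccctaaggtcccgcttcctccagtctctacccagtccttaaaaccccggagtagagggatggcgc

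Promoter windows were found for 6 of the 7 genes, all but Ahr. GCGTG, read on both strands, occurred 1 time in Tiparp, with its first letter 170 bases before the start, 1 time in Cyp1b1 at 76 bases and 3 times in Ahrr at 107, 82 and 27 bases. Arnt had 1 match at 29 bases, and Arnt2 and Nqo1 had none. Of 32851 windows of 300 bases over all genes, 32.4% held at least 1 match, so the motif alone is common. The CRE half-site TGACG, searched for on both strands, occurred in 20.8% of windows and had 3 matches in Arnt, of which the 2 farthest from the start overlap on opposite strands, and none in the other 5 genes. The E-box CACGTG, found in 7.15% of windows, had 0 matches in these 6. The matches are a description of letters in these windows. The promoters of Tiparp, Ahrr and Cyp1b1 were printed because they held GCGTG, so nothing is read from their sharing it. Binding of AHR to them was not tested.

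The wider pathway was read from 6 lists that hold 70 genes besides Tiparp: the AHR complex, AHR target genes, the bHLH-PAS family, the PARP family, ADP-ribose hydrolases and the NRF2 pathway. Of these, 69 were matched to the table and 62 were tested. In FC vs CC, RT vs CC and FC vs RT, 0 of the 62 passed the edgeR call rule, beside 2.24%, 1.01% and 0.122% of all tested genes, and 0 passed by the quasi-likelihood test and by DESeq2. At an unadjusted p under 0.05 there were 9, 7 and 6 of the 62, which is near the shares of 16.5%, 11% and 10.7% over all tested genes. The median log2 fold changes of the 62 were -0.02, -0.02 and -0.01, beside -0.01, -0.001 and -0.01 for all tested genes.

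The list of the AHR complex also held the chaperone genes Hsp90aa1 and Hsp90ab1 and the co-chaperone gene Ptges3. Hsp90ab1 had 101000 ± 6315 UQ counts in CC and 105500 ± 20520 in FC (SD, n = 5), and its log2 fold change was -0.03 for FC vs CC (FDR 0.701) and -0.05 for FC vs RT (FDR 0.622).

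Among the AHR target genes 10 of 14 passed the filter on low counts, Tiparp included. Cyp1a1, the cytochrome P450 gene most often used as a readout of AHR, did not pass, with UQ counts of 4 to 12 in the CC libraries, 2 to 11 in the FC and 4 to 9 in the RT libraries. The groups overlapped fully, and differences of so few reads were not detectable at this depth. Cyp1a2, Ugt1a6b and Gsta1 had 0 or 1 read in every library. Of the tested 9 without Tiparp, the log2 fold changes in RT vs CC ran from -0.08 to 0.22 with a median of 0.07, and Aldh3a1, an aldehyde dehydrogenase gene, had 0.15 (FDR 0.769). In FC vs CC they ran from -0.68 to 0.10. The lowest was Gsta2, a glutathione transferase gene, with an FDR of 0.492 and only 1 to 19 UQ counts per library. Gsta2 and Gsta1, and Ugt1a6a and Ugt1a6b, are near-identical copies, and uniquely mapped reads leave their counts uncertain.

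The bHLH-PAS list held the largest positive difference among the 62 tested genes of the lists in FC vs CC and in RT vs CC, that of Npas4, which encodes an activity-induced partner of ARNT2. Npas4 had 1066, 534, 683, 491 and 348 UQ counts in CC libraries 3, 5, 6, 7 and 8, 822, 1031, 797, 845 and 819 in FC and 863, 1014, 792, 731 and 916 in RT. CC3 was above all FC and RT libraries and the other CC libraries were below them all. The log2 fold change was 0.53 (SE 0.17, edgeR FDR 0.0396) in FC vs CC and 0.52 (SE 0.17, FDR 0.0905) in RT vs CC, and neither passed 0.01. Without CC3 it was 0.75 (FDR 3.89e-08) and 0.76 (FDR 2.68e-08). With CC3 kept and the library number added as a block beside the RUVs factors, it was 0.64 (FDR 1.63e-09) and 0.58 (FDR 1.59e-07). In FC vs RT the genes of smallest p were Arnt and Npas3, a neuronal PAS factor gene with 0.13 (FDR 0.423), and Epas1, which encodes a hypoxia-inducible factor subunit, had -0.11 (FDR 0.216) in RT vs CC. Npas2 and Hif3a, named after their values were seen, passed only when 1 control library was left out. Without CC8, which had 1252 UQ counts of Npas2 against 1637 to 1787 in the other CC libraries, Npas2 had a log2 fold change of -0.21 in FC vs CC (FDR 4.57e-05). Gsta2, with 1 UQ count in CC8 and 11 to 19 in the other CC libraries, was at -1.59 there (FDR 0.000302). Without CC3, with 287 UQ counts of Hif3a against 162 to 207, Hif3a had 0.45 in RT vs CC (FDR 0.000105).

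The PARP family adds or builds ADP-ribose on proteins, and TIPARP belongs to it. All 16 listed genes passed the filter. Parp8 had a log2 fold change of -0.13 in FC vs CC (SE 0.04, FDR 0.059) and -0.09 in RT vs CC (FDR 0.439), and Parp3, known from DNA break repair, had -0.22 in FC vs CC (SE 0.08, FDR 0.113). Parp3 had 168 to 233 UQ counts in CC and 162 to 192 in FC. The tankyrase gene Tnks was at -0.07 in RT vs CC (FDR 0.52), and Tnks had 271 UQ counts in FC3 and 700 in RT3 against 2000 to 3066 in the other 13 libraries. Tnks2 was at 0.08 (FDR 0.34) and Parp10 at -0.15 (FDR 0.573) in FC vs RT. The 15 tested genes without Tiparp ran from -0.22 to 0.10 in FC vs CC, with a median of -0.02, and from -0.14 to 0.10 in RT vs CC, with a median of -0.03.

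Of the ADP-ribose hydrolases, which remove the mark, 5 of the 7 listed were tested. Parg, the main poly-ADP-ribose glycohydrolase gene, had -0.09 in FC vs CC (FDR 0.179), -0.06 in RT vs CC (FDR 0.561) and -0.03 in FC vs RT (FDR 0.871). Macrod1 had 0.05 (FDR 0.666) in FC vs CC, Adprhl2 0.05 (FDR 0.721) in RT vs CC and Adprh -0.03 (FDR 0.829) in FC vs RT. Adprhl1 had 0 to 5 reads per library. The 15 genes of the NRF2 pathway, which shares Nqo1 with AHR, ran from -0.07 to 0.10 in FC vs CC and from -0.09 to 0.09 in RT vs CC. Gclc, the catalytic subunit gene for glutathione synthesis, had -0.07 in FC vs CC (FDR 0.312) and -0.05 in FC vs RT (FDR 0.624). The pentose phosphate genes G6pdx and Taldo1 had -0.07 in FC vs CC (FDR 0.362) and 0.06 in RT vs CC (FDR 0.373), G6pdx had -0.10 in FC vs RT (FDR 0.202), and Me1, the malic enzyme gene, had -0.07 in RT vs CC (FDR 0.39). Nfe2l2, which encodes NRF2 itself, had 0.09 in RT vs CC (FDR 0.595).

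**Figure D5:**
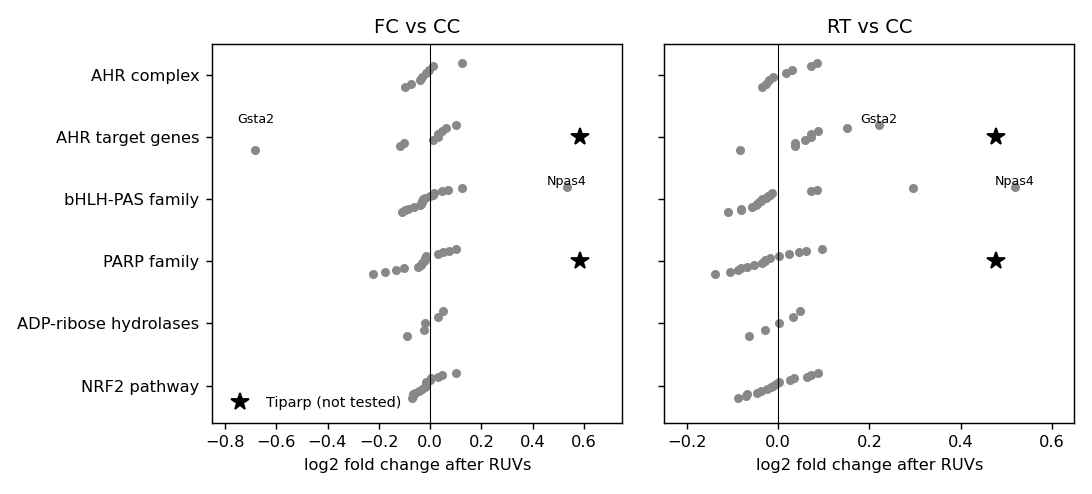
Log2 fold changes after RUVs of each tested gene in the 6 lists (rows) in FC vs CC (left) and RT vs CC (right), with Tiparp as a star that was not tested and with axes of different range. Most genes lie within 0.2 of 0, and Npas4 (0.53 and 0.52) and, in FC vs CC, Gsta2 (-0.68) lie apart.

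Genes with a pattern most like that of Tiparp were found by Pearson's correlation of log2(UQ count + 1) over the libraries, among 14990 genes with a mean UQ count of at least 50. The libraries fall into the 3 groups, so this describes likeness and carries no p. Over all 15 libraries the nearest were Clk1, a splicing kinase gene (r = 0.894), Sgk1, a glucocorticoid-induced kinase gene (0.885), Sik1, a salt-inducible kinase gene (0.878), Ankrd53 (0.876) and Zfp658 (0.863). Over the 13 libraries without FC3 and RT3 they were Arid5a (0.967), the immediate early genes Fos (0.964), Btg2 (0.955) and Fosb (0.952), and Sik1 (0.949). Sik1 alone was in both lists, with 455 ± 41.4 UQ counts in CC, 905.8 ± 163 in FC and 915.2 ± 101 in RT (SD, n = 5). Fos had 265.2 ± 53.4, 1338 ± 212 and 1079 ± 110. Fos had 1299 counts in FC3, among 1148 to 1698 in FC, while Tiparp was lowest there. The r of Arid5a was 0.367 over all 15 libraries, where FC3 held its highest FC count of 1023.

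After RUVs, over all 15 libraries, the nearest genes were Fos (0.98), Btg2 (0.979), 1700016P03Rik (0.978), Arid5a (0.978) and Park7 (0.976), none of which was among the 5 nearest after UQ over the same libraries. Park7 had r = -0.408 after UQ over those libraries, with 15014 counts in FC3 against a CC mean of 5373. After UQ without FC3 and RT3 its r was -0.101, so its likeness to Tiparp was seen only after RUVs. RUVs reduces the spread within groups by its construction, so r after RUVs rests more on the differences between the 3 groups. Of the 6 pathway genes Ahr had the highest r with Tiparp after UQ, 0.559 over 15 libraries and 0.62 over 13. The share of all genes with an r as high was not computed, so no link is read from it. Arnt had 0.358 and -0.436, so its sign depended on FC3 and RT3. Nqo1 had -0.254 and 0.133, Ahrr 0.487 and 0.325, Arnt2 0.333 and -0.075, and Cyp1b1 0.265 and 0.131.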

How the data were processed

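PolyA RNA from the hippocampus was sequenced in 15 libraries, with 5 each for CC, FC and RT. Per the study's methods, the authors aligned the reads to mm9 with GSNAP, kept unique concordant pairs and made the deposited raw counts per Ensembl gene with HTSeq 0.6.1, and no normalization was applied to the deposited counts. Unique mapping lowers the counts of near-identical genes. With an unstranded kit, reads over exons shared by genes on opposite strands cannot be assigned by strand. The study's methods do not state how such reads were counted. Symbols, positions and exonic lengths came from the Ensembl annotation on mm9, and promoter sequences came from a RefSeq table on GRCm38.p6.

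The 18008 genes with over 10 reads in at least 6 libraries were kept. Using edgeR 4.0.16 (R 4.3.3), 1 negative binomial model was fitted to the 15 libraries with UQ factors and 5 RUVs factors from the study's 625 negative control genes. RUVs was written anew, and after matching signs the largest difference from the factors in the supplementary code was 4.93e-07. The test was a likelihood ratio test at an FDR of 0.01. The SE is the size of the log2 fold change over the root of the test statistic. Alternatives used edgeR's quasi-likelihood test, DESeq2 1.42.0, TMM, other filters, other numbers of factors, RUVs with all genes as controls, svaseq from sva 3.50.0, a replicate block and libraries left out. The steps were run on simulated counts with the same dispersion for every gene. That check set no pass mark for calling changes as small as most of those in the pathway genes, so nothing is read from it for them. Libraries of a group differed beyond sampling noise (chi-square per degree of freedom 6.4 to 445).

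The genes, lists, motifs and comparisons were chosen with earlier results of these data known. Named genes are the 7 genes, every listed gene past the call rule, the 2 with the smallest p in each list and comparison, and the 5 most like Tiparp over 15 and over 13 libraries. A result that this rule names is not reported here.

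Whether the library numbers pair the groups was checked by the correlation of deviations from the group means over 14991 genes. Between same-numbered FC and RT libraries it was 0.381 to 0.919 (median 0.732, 5 pairs). For different numbers it was -0.81 to 0.669 (median 0.2065, 20 pairs), so the ranges overlapped. The highest value, 0.919, was that of FC3 with RT3, and FC7 had 0.381 with RT7 but 0.669 with RT6. The methods also place 1 library of each group in a lane. Pairing of FC and RT was therefore taken as possible. The model used held no term for the library number, which entered only as a block in the alternatives. For CC with FC it was -0.49 to 0.347 and for CC with RT -0.509 to 0.111.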

Additional observations from a re-analysis of the deposited data

Results flagged for a closer look

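Values were looked at again where 1 library of a group lay apart from the other 4 by Dixon's test, with the gap above 0.71 of the range of the group. Over the 7 genes and 3 groups, 6 of 21 were so, 4 of them in FC3 and 1 in RT3. By chance about 1 in 20 independent sets would be so. The 7 genes share the same libraries, so the 21 sets are not independent and their number is not compared with that rate. In FC3, Tiparp had 621 UQ counts against 1032 to 1138 in the other FC libraries, Ahr had 186 against 544 to 602, Arnt had 1322 against 2513 to 2667 and Arnt2 had 9016 against 14966 to 16592. In RT3, Arnt had 2012 UQ counts against 2576 to 2683. The remaining one was in CC, where Arnt2 had 14210 UQ counts in CC8 against 15845 to 16365. FC3 and RT3 are also the libraries with the widest relative log expression over all genes, at 0.828 and 0.436, and with the highest summed oligodendrocyte markers, at 313798 and 280785 UQ counts against 184691 to 220017 in the other 13 libraries. The cause was not tested.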

How the results depend on the processing

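The log2 fold change of Tiparp was positive under all 29 alternatives, at 0.49 to 0.64 in FC vs CC, 0.43 to 0.51 in RT vs CC and 0.06 to 0.17 in FC vs RT. With 1 library left out it was 0.57 to 0.62, 0.47 to 0.51 and 0.09 to 0.14. Without FC3 and RT3 and with UQ factors alone, an alternative chosen after seeing the data, it was 0.64, 0.47 and 0.17. The 0 called genes of the pathway lists became 0 to 2 with 1 library left out in FC vs CC and in RT vs CC, and stayed 0 in FC vs RT. In FC vs CC there were 2 without CC8 (Gsta2 and Npas2) and 1 without CC3 (Npas4), and in RT vs CC there were 2 without CC3 (Npas4 and Hif3a). The replicate block with RUVs factors gave 1 call in each of these comparisons, Npas4, with log2 fold changes of 0.64 (FDR 1.63e-09) and 0.58 (FDR 1.59e-07), and changed no other call on the pathway lists. With the block and UQ factors alone there were 0 calls. The 6 genes other than Tiparp were called under none of the 29 alternatives, and their lowest FDR was 0.0121, for Ahr in FC vs CC. Over all genes, calls ranged from 34 to 653 in FC vs CC (403 in the model used), from 19 to 276 in RT vs CC (182) and from 0 to 92 in FC vs RT (22). Low counts limited Cyp1a1, which was not tested, and Gsta2, with 1 to 19 UQ counts per library.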
